A study of Mus musculus with 14 samples.

Results

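Expression of 8 genes for nucleases and nucleic acid sensors was examined in bulk RNA-seq of mouse tumors. They are Dnase1l3, Dnase1l1, Dnase2a, Trex1, Samhd1, Zbp1, Aim2 and Ifi204, chosen by name from the 53801 Ensembl genes quantified in each tumor. They were selected on earlier results of these data, in which Dnase1l3 stood out between responders and non-responders. The values of the members in that comparison are therefore given as a description, without a test. All 8 genes passed the filter on low counts, among 16287 genes tested.

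CT26, a Balb/c line of colon carcinoma cells, had been labelled with a library of DNA barcodes and transplanted under the skin of both flanks of female Balb/c mice. The hosts were of the strain of the line and received repeated injections of control IgG or of anti-PD-1, an antibody that blocks an inhibitory receptor of T cells, and the tumors were taken after the last dose. Anti-PD-1 tumors were called responders or non-responders from their final size relative to the control IgG tumors, so that these 2 groups differ in size by definition. By the same rule, responders were smaller than the median control IgG tumor, and non-responders were near that median or above it. There were 5 control IgG tumors from 4 mice (14L, 14R, 16R, 17R and 20R), 5 responders from 4 mice (24L, 26R, 30L, 30R and 35L) and 4 non-responders from 3 mice (29L, 32R, 33L and 33R). Both flanks were sampled in mice 14, 30 and 33, with L for left and R for right, so that the 14 tumors came from 11 mice.

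Nucleases remove DNA and RNA that would otherwise be taken as a sign of infection, and each works in its own compartment. DNASE1L3 is a secreted enzyme that digests DNA of dying cells, including DNA in chromatin and microparticles, and is made mainly by dendritic cells and macrophages. DNASE2A cuts DNA in lysosomes, TREX1 degrades DNA in the cytosol, and SAMHD1 removes the nucleotides from which DNA is made. Nucleic acids that escape are read by sensors, among them ZBP1, which binds Z-form nucleic acid and can start necroptosis, AIM2, which binds cytosolic double-stranded DNA and starts an inflammasome, and the interferon-inducible IFI200 family, to which Ifi204 belongs.

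Total expected counts, the sums of the fragments that RSEM assigned to genes, lay between 34266743 and 48481461 for control IgG tumors, between 34419159 and 44656674 for non-responders, and between 33237744 and 47233121 for responders. CPM below is a gene's count relative to the library total after scaling by edgeR's TMM factor, and TPM, as deposited, also divides by gene length. The epithelial gene Krt18 was at 7.75 to 15.9 CPM in the 14 tumors and Epcam at 0.554 to 5.33 CPM, so that neither was absent. Other epithelial markers varied more, with Krt8 at 0.875 to 27.1 CPM, Cdh1 at 1.40 to 10.7 CPM and Krt19 at 0.0292 to 7.25 CPM. Over all genes, 9.90% passed an adjusted p of 0.05 between responders and non-responders (5.08% higher and 4.82% lower in responders), 13.2% between responders and control IgG tumors (7.88% higher and 5.30% lower), and 0% between non-responders and control IgG tumors. The 2 groups of tumors did not overlap in CPM for 12.8% of genes between responders and non-responders, and for 15.1% between responders and control IgG tumors. In these tumors, fewer cells of a type and less RNA per cell cannot be told apart.

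Measured per length, the 8 genes covered a wide range of levels. Mean TPM over the 14 tumors was highest for Zbp1 (138.1), followed by Samhd1 (120.1), Ifi204 (73.1), Dnase1l1 (38.7), Trex1 (28.9), Aim2 (25.4), Dnase2a (17.6) and Dnase1l3 (2.25). The ranges over tumors of neighbors in this order overlapped, with 2 exceptions. Every tumor had more TPM of Ifi204 (52.4 or more) than any tumor had of Dnase1l1 (46.0 or less), and more of Dnase2a (13.5 or more) than any had of Dnase1l3 (7.79 or less). Dnase1l3 was thus the gene with the lowest level and, as described next, the gene with the widest difference between groups.

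Dnase1l3 was higher in all 5 responders than in every other tumor. The gene (ENSMUSG00000025279) lies on chromosome 14, 7964533 to 7994573 on the minus strand of mm10, where no other annotated gene overlaps it, and its counts were whole numbers in all 14 tumors, from 74 to 1169. In responders it was at 27.0 CPM in 24L, 10.7 in 26R, 18.5 in 30L, 16.3 in 30R and 10.7 in 35L. In non-responders it was at 4.11 CPM in 29L, 2.43 in 32R, 3.48 in 33L and 2.47 in 33R. In control IgG tumors it was at 6.50 CPM in 14L, 3.39 in 14R, 1.94 in 16R, 4.20 in 17R and 1.92 in 20R. Responders did not overlap either of the other groups, on the CPM or the TPM scale, whereas the non-responders lay within the range of the control IgG tumors in CPM.

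**Figure D1:**
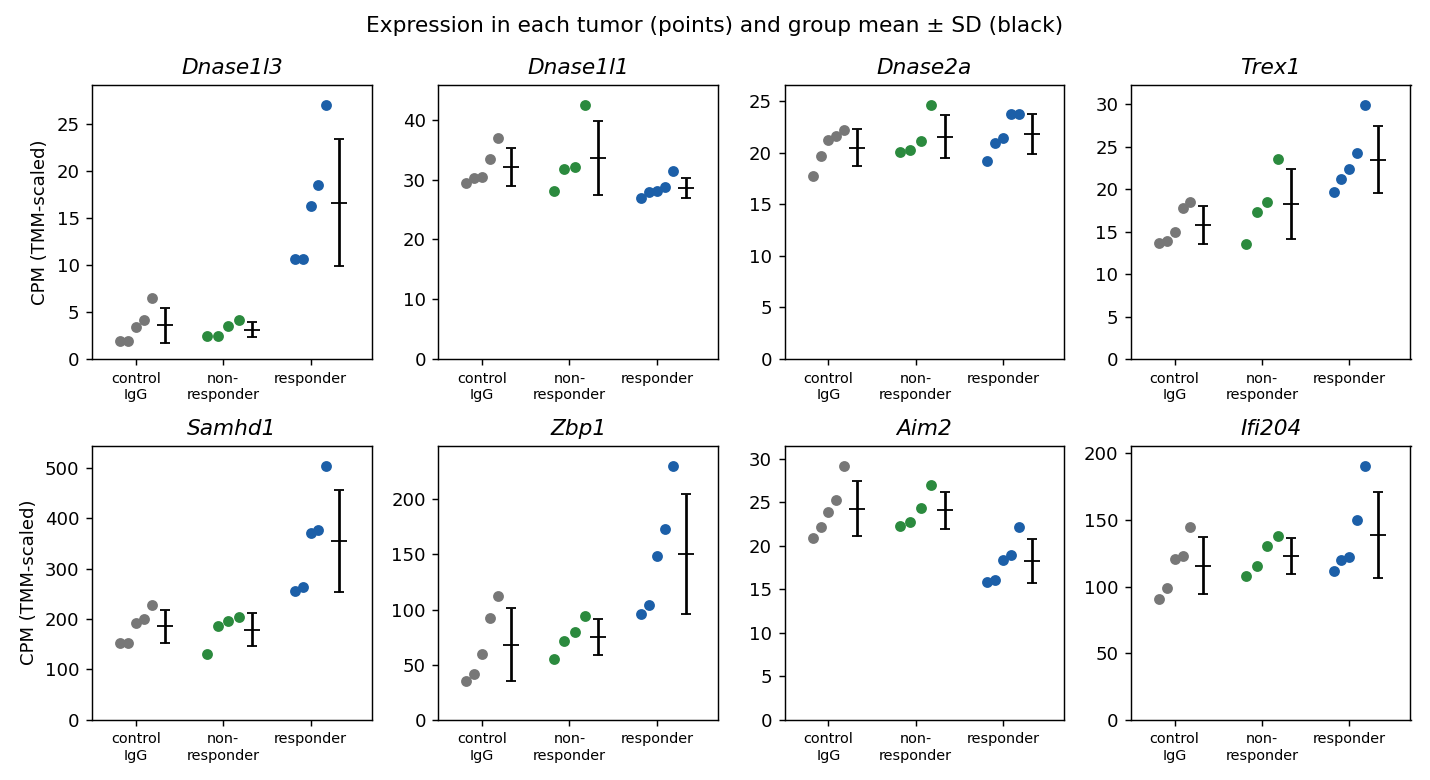
Expression of the 8 genes in each tumor, in CPM scaled by TMM on an axis from 0 (vertical), by group (horizontal), with 1 point per tumor, sorted by value, and the group mean ± SD in black. Dnase1l3 lay between 10.7 and 27.0 CPM in the 5 responders and between 1.92 and 6.50 CPM in the other 9 tumors, while Dnase2a had overlapping groups.

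Mean CPM of Dnase1l3 was 16.6 ± 6.75 over responders (SD, n = 5), 3.12 ± 0.818 over non-responders (n = 4) and 3.59 ± 1.90 over control IgG tumors (n = 5). The fitted difference between responders and non-responders was 2.41 on the log2 scale (SE 0.38), which is 5.32-fold, and the lowest responder was 2.60 times the highest non-responder and 1.65 times the highest control IgG tumor, 14L. It was the 16th largest increase among the 16287 genes. The difference between responders and control IgG tumors was 2.22 (SE 0.35, 4.64-fold, edgeR quasi-likelihood adjusted p = 0.00174). The value stayed between 1.97 and 2.54 when each tumor was left out in turn. Non-responders and control IgG tumors differed by -0.20 (SE 0.37, edgeR adjusted p = 0.943), and by 0.13 without 14L. Tests against control IgG tumors use the same responders and non-responders on which the genes were selected, and for the members they are not independent evidence.

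The spread of Dnase1l3 within a group was also wide. Its coefficient of variation was 52.8% in control IgG tumors, 40.6% in responders and 26.2% in non-responders, against 8.75%, 8.95% and 9.73% for Dnase2a. In the left and right tumor of 1 mouse, the left had 1.92 times the CPM of the right in mouse 14, 1.14 times in mouse 30 and 1.41 times in mouse 33. These ratios, from 1 mouse in each group, were smaller than the 5.32-fold difference between responders and non-responders, on which the gene was selected.

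Dnase1l1 and Dnase2a, a relative of DNASE1L3 and the lysosomal DNase, did not share this pattern. Dnase1l1 (ENSMUSG00000019088, chromosome X, 74273217 to 74282337, minus strand) was at 28.0 CPM in 24L, 31.4 in 26R, 27.8 in 30L, 26.9 in 30R and 28.7 in 35L. It was at 32.0 CPM in 29L, 31.8 in 32R, 28.1 in 33L and 42.4 in 33R, and at 29.4 to 37.0 CPM in control IgG tumors. Responders overlapped both other groups, with the highest value in the non-responder 33R. The difference between responders and non-responders was -0.23 (SE 0.11), and without 33R it was -0.08. On the log2(TPM + 1) scale it was 0.07, where the median of all genes was 0.17, so that its sign depended on the scale. Against control IgG tumors it was -0.17 in responders (SE 0.10, edgeR adjusted p = 0.309) and 0.06 in non-responders (SE 0.11, edgeR adjusted p = 0.937). Dnase1l1 overlaps Taz on the opposite strand, and strandedness of the libraries is not given in the sources used here, so that reads of the 2 genes may not be separated where they overlap.

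Dnase2a (ENSMUSG00000003812, chromosome 8, 84908560 to 84922915, plus strand) had the smallest difference between responders and non-responders of the 8 genes on the CPM scale. It was at 23.8 CPM in 24L, 21.4 in 26R, 19.2 in 30L, 23.7 in 30R and 20.9 in 35L. Non-responders had 20.3 CPM in 29L, 20.1 in 32R, 21.2 in 33L and 24.6 in 33R, and control IgG tumors had 17.8 to 22.2 CPM. All 3 groups overlapped. The difference was 0.18 between responders and non-responders on the log2(TPM + 1) scale. On the CPM scale it was 0.02 (SE 0.09) between responders and non-responders, with -0.01 to 0.11 over the fits that left out 1 tumor, 0.09 (SE 0.09, edgeR adjusted p = 0.547) between responders and control IgG tumors, and 0.07 (SE 0.09, edgeR adjusted p = 0.932) between non-responders and control IgG tumors. Dnase2a overlaps Mast1 on the other strand, and RSEM gave it a fractional count in 8 tumors.

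Trex1, for the main cytosolic exonuclease of DNA, was higher in responders by a smaller amount. The gene (ENSMUSG00000049734) lies on chromosome 9, 109057933 to 109059734 on the minus strand, within the annotated span of Atrip on the same strand, and its count was fractional in all 14 tumors, so that its level is uncertain to the extent that reads of the 2 genes were divided. Trex1 was at 29.9 CPM in 24L, 19.7 in 26R, 22.4 in 30L, 24.2 in 30R and 21.2 in 35L. It was at 13.6 CPM in 29L, 18.5 in 32R, 17.3 in 33L and 23.5 in 33R. Control IgG tumors had 17.8 CPM in 14L, 18.4 in 14R, 15.0 in 16R, 13.7 in 17R and 13.9 in 20R. Every responder was above every control IgG tumor, while the non-responder 33R lay among the responders in CPM, though not in TPM. The difference was 0.37 (SE 0.16) between responders and non-responders, and 0.58 (SE 0.15, 1.49-fold, edgeR adjusted p = 0.0204) between responders and control IgG tumors. The latter passed 0.05 in 12 of 14 fits that left out 1 tumor, and had an adjusted p of 0.0608 without 20R and 0.0620 without 24L. Non-responders and control IgG tumors differed by 0.21 (SE 0.16, edgeR adjusted p = 0.932).

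Samhd1, for the enzyme that removes nucleotides, was higher in all 5 responders than in every other tumor. The gene (ENSMUSG00000027639) lies on chromosome 2, 157097533 to 157135265 on the minus strand, without an overlapping gene, and had whole counts of 4114 to 21761. It was at 503.3 CPM in 24L, 256.1 in 26R, 376.6 in 30L, 369.9 in 30R and 262.8 in 35L. Non-responders had 203.8 CPM in 29L, 186.5 in 32R, 195.2 in 33L and 130.3 in 33R. Control IgG tumors had 228.6 CPM in 14L, 192.5 in 14R, 153.1 in 16R, 200.7 in 17R and 152.3 in 20R. The 5 responders lay above all other tumors, with the lowest responder 1.26 times the highest non-responder and 1.12 times the highest control IgG tumor.

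The difference in Samhd1 was 0.98 (SE 0.20, 1.98-fold) between responders and non-responders. It was 0.93 (SE 0.19, 1.91-fold, edgeR adjusted p = 0.00573) between responders and control IgG tumors, and it passed 0.05 in all 14 fits that left out 1 tumor. Non-responders and control IgG tumors differed by -0.05 (SE 0.20, edgeR adjusted p = 0.970). Within mice, the left tumor had 1.19 times the CPM of the right in mouse 14, 1.02 times in mouse 30 and 1.50 times in mouse 33.

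Zbp1, the sensor of Z-form nucleic acid, was higher in responders on average and varied widely among control IgG tumors. The gene (ENSMUSG00000027514) lies on chromosome 2, 173206612 to 173218923 on the minus strand. It was at 230.2 CPM in 24L, 96.2 in 26R, 172.9 in 30L, 149.0 in 30R and 104.1 in 35L, against 55.5 in 29L, 79.2 in 32R, 71.4 in 33L and 93.9 in 33R. In control IgG tumors it was at 92.1 CPM in 14L, 112.2 in 14R, 35.5 in 16R, 59.4 in 17R and 41.3 in 20R. Responders and non-responders did not overlap, but by a narrow margin, since the lowest responder was 1.03 times the highest non-responder, and both tumors of mouse 14 lay near the lower responders.

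The difference in Zbp1 was 1.01 (SE 0.34, 2.01-fold) between responders and non-responders. Between responders and control IgG tumors it was 1.14 (SE 0.31, 2.21-fold, edgeR adjusted p = 0.0274). That call was lost without 16R, 17R, 20R, 24L, 30L or 30R, with adjusted p from 0.0522 to 0.0848, while the difference stayed between 0.94 and 1.40 over all 14 such fits. Non-responders and control IgG tumors differed by 0.14 (SE 0.33, edgeR adjusted p = 0.953).

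Aim2 went the other way and was lower in responders on the CPM scale. The gene (ENSMUSG00000037860) lies on chromosome 1, 173350879 to 173466040 on the plus strand, overlaps Cadm3 on the other strand, and had whole counts. It was at 15.8 CPM in 24L, 22.1 in 26R, 18.9 in 30L, 16.1 in 30R and 18.4 in 35L, against 24.3 in 29L, 22.7 in 32R, 22.2 in 33L and 26.9 in 33R. Control IgG tumors had 22.2 CPM in 14L, 25.2 in 14R, 20.9 in 16R, 23.8 in 17R and 29.2 in 20R. Responders lay below all non-responders, with 26R just under 33L, and 26R overlapped the control IgG tumors.

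The difference in Aim2 was -0.40 (SE 0.12, 0.759-fold) between responders and non-responders, and -0.41 (SE 0.11, 0.753-fold, edgeR adjusted p = 0.0246) between responders and control IgG tumors. Non-responders and control IgG tumors differed by -0.01 (SE 0.12, edgeR adjusted p = 0.986). On the log2(TPM + 1) scale the difference from control IgG tumors was -0.25 and no longer passed (limma adjusted p = 0.153), and the difference from non-responders was -0.15, where the median of all genes was 0.17. The average transcript length that RSEM gave to Aim2 ranged from 1167 to 1376 bases among tumors. The difference from control IgG tumors also missed 0.05 without 20R (adjusted p = 0.0732), 24L (0.0712) or 30R (0.0664).

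Ifi204, a member of the IFI200 family (ENSMUSG00000073489, chromosome 1, 173747293 to 173766943, minus strand), showed no difference beyond the spread. It was at 190.5 CPM in 24L, 121.9 in 26R, 150.1 in 30L, 112.0 in 30R and 119.7 in 35L. Non-responders had 108.0 to 137.8 CPM and control IgG tumors 90.8 to 144.6 CPM, so that only 24L and 30L lay above all tumors of the other groups. The difference was 0.17 (SE 0.16) between responders and non-responders, and 0.03 without 24L. It was 0.26 (SE 0.15, edgeR adjusted p = 0.287) between responders and control IgG tumors, 0.12 without 24L, and 0.09 (SE 0.16, edgeR adjusted p = 0.942) between non-responders and control IgG tumors. Genes of its family resemble each other in sequence, and its count was fractional in 13 tumors, so that the value is uncertain.

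**Figure D2:**
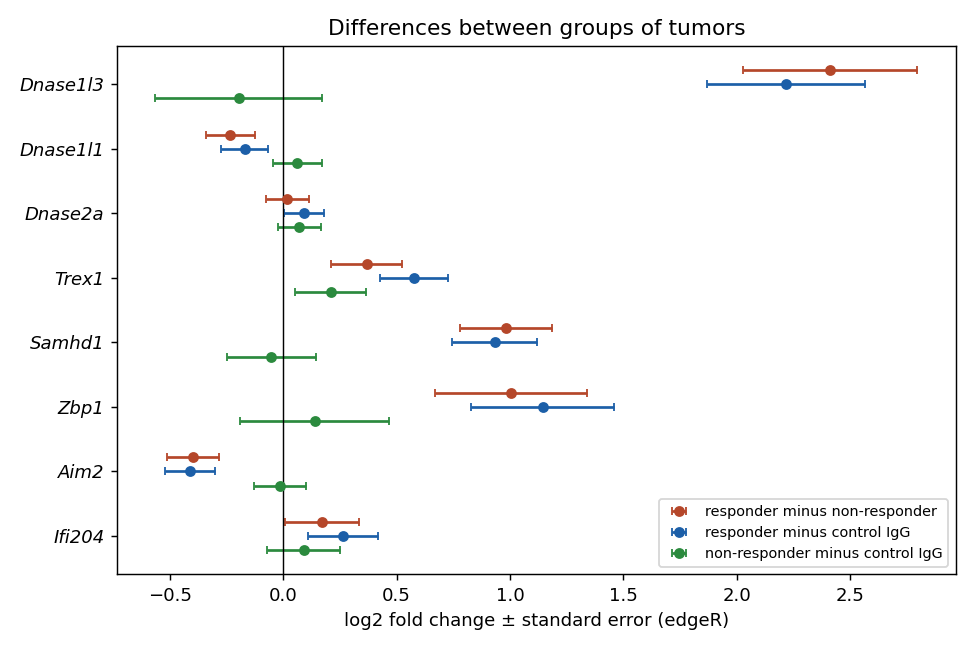
Log2 fold changes of the 8 genes (horizontal, edgeR, with the standard error as bars) in the 3 comparisons between groups of tumors (colors). Dnase1l3 stood at 2.41 and 2.22 in the comparisons of responders, Samhd1 and Zbp1 near 1, and Aim2 at -0.40 and -0.41, while the values between non-responders and control IgG tumors lay between -0.20 and 0.21.

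Counted over the 8 genes, 4 were higher and 1 lower in responders than in control IgG tumors at an adjusted p of 0.05 (edgeR), beside 7.88% and 5.30% of all genes. Those were Dnase1l3, Samhd1, Zbp1 and Trex1, and Aim2. The number fell to 2, Dnase1l3 and Samhd1, without 20R or without 24L. Between responders and non-responders 2 genes were higher and 1 lower, beside 5.08% and 4.82% of all genes, and nothing is read from this count because the genes were selected on this comparison. Between non-responders and control IgG tumors none of the 8 passed, beside 0% of all genes, where edgeR found 758 genes at an unadjusted p under 0.05, DESeq2 called 18 genes and limma-voom 0. The median log2 fold change of the 8 genes was 0.27 between responders and non-responders, 0.42 between responders and control IgG tumors, and 0.07 between non-responders and control IgG tumors, against 0.01, -0.01 and 0.01 over all genes. As with the counts, nothing is read from the median between responders and non-responders. The median against control IgG tumors rests on the same responders.

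Among responders, 24L was at 1 end of the range for 7 of the 8 genes. It had the highest CPM of Dnase1l3, Dnase2a, Trex1, Samhd1, Zbp1 and Ifi204 and the lowest of Aim2. In 26R, Dnase1l3, Trex1, Samhd1 and Zbp1 were at their lowest among responders, and Dnase1l1 and Aim2 at their highest. Without 24L, Dnase1l3 still differed by 2.17 between responders and non-responders, and Samhd1 by 0.82.

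The promoter windows of 5 of the 8 genes were read from RefSeq (GRCm38.p6, from 250 bases before to 50 bases after the start of transcription, with 2 windows each for Dnase1l1 and Trex1). They are shown for a gene that was higher in responders on every scale, Samhd1, for the exonuclease Trex1, which was higher by less, and for Aim2, which was lower on the CPM scale. Capitals mark the letters TTCNNNGAA, a pattern that binds STAT factors (GAS), which reads the same on both strands. The windows lie at chr2:157135047-157135346 (minus strand), chr9:109059674-109059973 (minus strand, the first window of Trex1) and chr1:173420354-173420653 (plus strand), and each is printed 5′ to 3′ along its gene.
Samhd1: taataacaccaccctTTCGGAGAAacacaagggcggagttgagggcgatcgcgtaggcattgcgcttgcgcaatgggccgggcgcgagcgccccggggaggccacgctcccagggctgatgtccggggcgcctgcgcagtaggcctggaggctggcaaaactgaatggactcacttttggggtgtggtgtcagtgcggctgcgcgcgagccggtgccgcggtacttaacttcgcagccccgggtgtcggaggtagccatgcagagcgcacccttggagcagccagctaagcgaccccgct
Trex1: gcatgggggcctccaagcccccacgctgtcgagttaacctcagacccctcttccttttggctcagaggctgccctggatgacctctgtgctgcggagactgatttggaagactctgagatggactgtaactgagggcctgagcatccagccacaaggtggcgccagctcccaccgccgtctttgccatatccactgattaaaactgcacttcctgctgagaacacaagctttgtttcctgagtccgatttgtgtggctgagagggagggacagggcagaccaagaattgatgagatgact
Aim2: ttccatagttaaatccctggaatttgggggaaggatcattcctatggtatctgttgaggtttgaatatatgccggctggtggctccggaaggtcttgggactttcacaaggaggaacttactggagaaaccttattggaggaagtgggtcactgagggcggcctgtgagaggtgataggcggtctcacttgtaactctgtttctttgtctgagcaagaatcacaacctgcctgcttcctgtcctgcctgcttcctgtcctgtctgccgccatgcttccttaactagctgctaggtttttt
Samhd1 held 1 GAS match, TTCGGAGAA, at position -235 from the start, and the windows of the other 4 genes held none. Of all 32851 RefSeq windows of this length, 8.30% held a match. A pattern that binds interferon regulatory factors (ISRE), spelled as 2 copies of GAAA with 2 bases of any kind between them, was searched on both strands and was in none of the 7 windows of these 5 genes, against 3.44% of all windows. A match is a stretch of letters and was not tested for binding.

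Within groups, Dnase1l3 varied along with MHC class II genes. Each tumor's log2 CPM was set relative to its group mean. Pearson's r with Dnase1l3 was taken over the 14 tumors for 12203 genes with a mean log2 CPM of at least 1. The r is a description, since the genes were measured in the same libraries and some of the tumors share a mouse. The 10 genes with the highest r were H2-DMa (0.951), Gm4759 (0.941), Gimap4 (0.941), H2-Ab1 (0.941), H2-Eb1 (0.937), Dtx3l (0.936), H2-Aa (0.935), Gbp4 (0.931), Cxcl9 (0.929) and Ciita (0.927). H2-Ab1, H2-Aa and H2-Eb1 encode chains of MHC class II molecules, H2-DMa a chain of the molecule that loads peptide on them, and Ciita the transactivator of these genes. Cxcl9 is a chemokine for T cells, and Gbp4 an interferon-induced GTPase. Without 24L, r was between 0.914 and 0.945 for these genes. By Spearman's rho, 5 of the 10 were again among the 10 most alike, and on the log2(TPM + 1) scale 3 of the 10. On the latter scale r was 0.886 for H2-Ab1, 0.878 for H2-Eb1 and 0.883 for H2-Aa, below 0.960 for Gbp4 and 0.958 for Gimap4. H2-DMa stood at 0.932 and Ciita at 0.935.

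Of the other 7 genes, Samhd1 varied most like Dnase1l3 within groups, with an r of 0.881, the 37th highest of the 12203 genes, and 0.851 without 24L. The r was 0.676 for Zbp1, 0.648 for Ifi204 and 0.285 for Trex1. It was -0.256 for Dnase2a, -0.406 for Dnase1l1 and -0.460 for Aim2. Without 24L, the r of Trex1 was 0.085. The 8 tumors above their group mean in Dnase1l3 were also above it in Samhd1, and of the 6 below it, 16R, 20R, 26R and 35L were also below it in Samhd1 and Zbp1. The other 2 were exceptions, since 32R was above its group mean in both genes and 33R in Zbp1. Among the 8 tumors above it in Dnase1l3, Zbp1 was below its group mean in 29L (-0.41), 17R (-0.06) and 33L (-0.05).

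**Figure D3:**
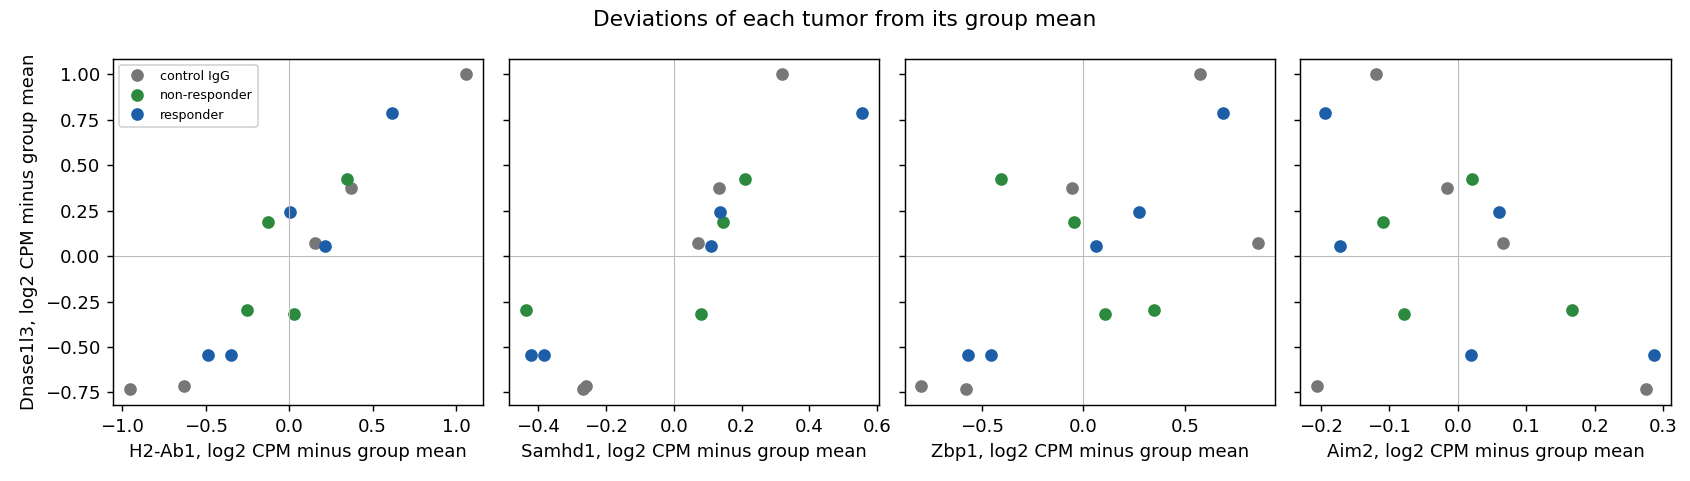
Deviation of each of the 14 tumors from its group mean in log2 CPM, for Dnase1l3 (vertical) against H2-Ab1, Samhd1, Zbp1 and Aim2 (horizontal), colored by group. The points rise together for H2-Ab1 (r = 0.941) and Samhd1 (r = 0.881), less closely for Zbp1 (r = 0.676), and scatter with a negative r for Aim2 (-0.460).

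Marker genes of several cell types moved with the groups and are given beside the results. The summed CPM of 7 markers of conventional dendritic cells was 48.9 to 67.6 for responders, 26.1 to 34.6 for non-responders and 23.3 to 37.3 for control IgG tumors. Responders lay above both other groups, which overlapped each other, and 5 of the 7 rose in each comparison of responders (edgeR adjusted p under 0.05). Among them was Xcr1, a receptor of cross-presenting dendritic cells, at 4.52 to 8.33 CPM in responders and 1.67 to 2.06 CPM in non-responders. The sum of 6 T cell markers was 35.2 to 71.4 for responders, 19.9 to 25.4 for non-responders and 15.7 to 37.2 for control IgG tumors, and 5 of 6 rose against non-responders and 6 of 6 against control IgG tumors. The sum of 8 macrophage markers was 1477 to 1876 for responders, 1255 to 1466 for non-responders and 1325 to 1586 for control IgG tumors, and 1 of 8 rose in each comparison. Of 6 markers of plasmacytoid dendritic cells 3 rose in each comparison, and 1, Cox6a2, fell against non-responders by 1.27 (edgeR adjusted p = 0.0251). Their sum overlapped between groups, at 10.03 to 30.1 CPM for responders and 12.9 to 18.5 CPM for non-responders. Whether the fall of Cox6a2 lay in plasmacytoid dendritic cells or in other cells was not tested. Of 5 markers of mature dendritic cells, 3 (Ccr7, Ccl22 and Il4i1) rose against non-responders and 2 against control IgG tumors, while their sum also overlapped. None of these markers was at 0 in all tumors.

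The ratio of the mean in responders to that in non-responders was 5.33 for Dnase1l3, 1.98 for Samhd1 and 2.01 for Zbp1, beside 1.81 for the sum of conventional dendritic cell markers, 2.26 for T cells, 1.91 for 5 B cell markers and 1.21 for macrophages. The summed markers of B cells were 5.84 to 8.95 CPM for responders, 2.52 to 5.38 for non-responders and 2.49 to 3.18 for control IgG tumors. Within groups, the r with Dnase1l3 was 0.857 for the dendritic cell sum, 0.797 for T cells, 0.479 for B cells and 0.388 for macrophages. It was between -0.061 and 0.097 for the sums of plasmacytoid and mature dendritic cells, neutrophils, endothelium, skin epidermis, skeletal muscle, epithelium and cycling cells, and 0.567 for fibroblasts. The mature dendritic cell sum was carried by Fscn1 and Cacnb3, with means of 125.5 and 34.7 CPM in responders, beside 4.80 for Ccr7. In the plasmacytoid sum, Ly6d ran from 0.317 to 16.39 CPM in responders, and Siglech from 1.895 to 2.622. The r of these sums therefore does not describe their less abundant markers. The summed skin epidermis markers ran from 6.94 to 683.5 CPM in control IgG tumors and from 10.5 to 951.1 CPM in responders, so that the share of skin varied within groups. The summed skeletal muscle markers also varied, from 110.7 to 1127 CPM in control IgG tumors, 80.8 to 660.4 in non-responders and 22.3 to 383.1 in responders. The part of these cell types in the differences of the 8 genes was not tested.

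Other genes of the same pathways were counted over 8 lists with 69 genes, of which 68 were tested, all but Dnase2b. The lists were chosen with earlier results of these data known. Counts and p-values of their genes, here and in the paragraphs below, are a description and not independent evidence. Between responders and non-responders 14 of the 68 rose and none fell, beside 5.08% and 4.82% of all genes, and their median log2 fold change was 0.24. Between responders and control IgG tumors 17 rose and 1 fell, beside 7.88% and 5.30%, with a median of 0.24. None passed between non-responders and control IgG tumors, where the median was 0.01 (edgeR, with the counts at an unadjusted p and by other tools as above).

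Among 6 tested nucleases outside the cell or in its endolysosomes, Pld4, an exonuclease of single-stranded DNA in lysosomes, rose in both comparisons of responders. It averaged 115.6 ± 21.9 CPM over responders, 81.8 ± 4.12 over non-responders and 88.6 ± 5.99 over control IgG tumors (SD, n = 5, 4 and 5), a difference of 0.50 (SE 0.12, edgeR adjusted p = 0.0188) and of 0.38 (SE 0.11, edgeR adjusted p = 0.0299). The other 5 did not pass. Of 12 nucleases inside the cell, none passed between responders and non-responders and 3 rose against control IgG tumors. Among them were the mitochondrial Endog (0.65, SE 0.17, edgeR adjusted p = 0.0201) and Endod1 (0.36, SE 0.10, edgeR adjusted p = 0.0293). The 3 tested genes of the RNase H2 complex did not pass.

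In the cGAS-STING axis, through which cytosolic DNA leads to type I interferon, 2 of 9 genes rose in both comparisons of responders. Tmem173, which encodes the adaptor STING, averaged 74.2 ± 9.95 CPM over responders, 48.5 ± 6.48 over non-responders and 53.5 ± 6.86 over control IgG tumors, a difference of 0.62 (SE 0.12, edgeR adjusted p = 0.0123) and of 0.47 (SE 0.12, edgeR adjusted p = 0.0159). The kinase gene Ikbke differed by 0.56 (SE 0.10, edgeR adjusted p = 0.00804) and by 0.62 (SE 0.10, edgeR adjusted p = 0.00144). Cgas, for the sensor itself, differed by -0.11 from non-responders (edgeR adjusted p = 0.554) and by -0.08 from control IgG tumors (edgeR adjusted p = 0.679).

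The IFI200 family beside Aim2 and Ifi204 was measured with 11 genes. Ifi205 averaged 31.7 ± 5.40 CPM over responders, 16.4 ± 2.96 over non-responders and 13.7 ± 4.65 over control IgG tumors, a difference of 0.95 (SE 0.22, edgeR adjusted p = 0.0201) and of 1.21 (SE 0.21, edgeR adjusted p = 0.00246). Ifi207 rose against control IgG tumors by 0.70 (SE 0.22, edgeR adjusted p = 0.0478), and its difference from non-responders was 0.60 (edgeR adjusted p = 0.110). The other 9 did not pass. These genes resemble each other in sequence, so that the division of reads among them is uncertain.

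Endosomal receptors of nucleic acids and the proteins that carry or serve them had positive values in all 11 genes of their list in both comparisons of responders. Against non-responders 4 rose, and against control IgG tumors 6. Tlr9, the receptor of unmethylated CpG DNA, averaged 12.4 ± 3.73 CPM over responders, 5.22 ± 1.44 over non-responders and 7.05 ± 1.59 over control IgG tumors, a difference of 1.24 (SE 0.24, edgeR adjusted p = 0.0114) and of 0.82 (SE 0.22, edgeR adjusted p = 0.0270). Unc93b1, which carries these receptors to the endosome, differed by 0.55 (SE 0.11, edgeR adjusted p = 0.0129) and by 0.48 (SE 0.10, edgeR adjusted p = 0.00893). Tlr13, a receptor of bacterial ribosomal RNA, differed by 0.37 (edgeR adjusted p = 0.0238) and by 0.35 (edgeR adjusted p = 0.0148), and Tlr3, a receptor of double-stranded RNA, by 0.72 (edgeR adjusted p = 0.0233) and by 0.55 (edgeR adjusted p = 0.0380). The median over the list was 0.41 against non-responders and 0.48 against control IgG tumors.

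**Figure D4:**
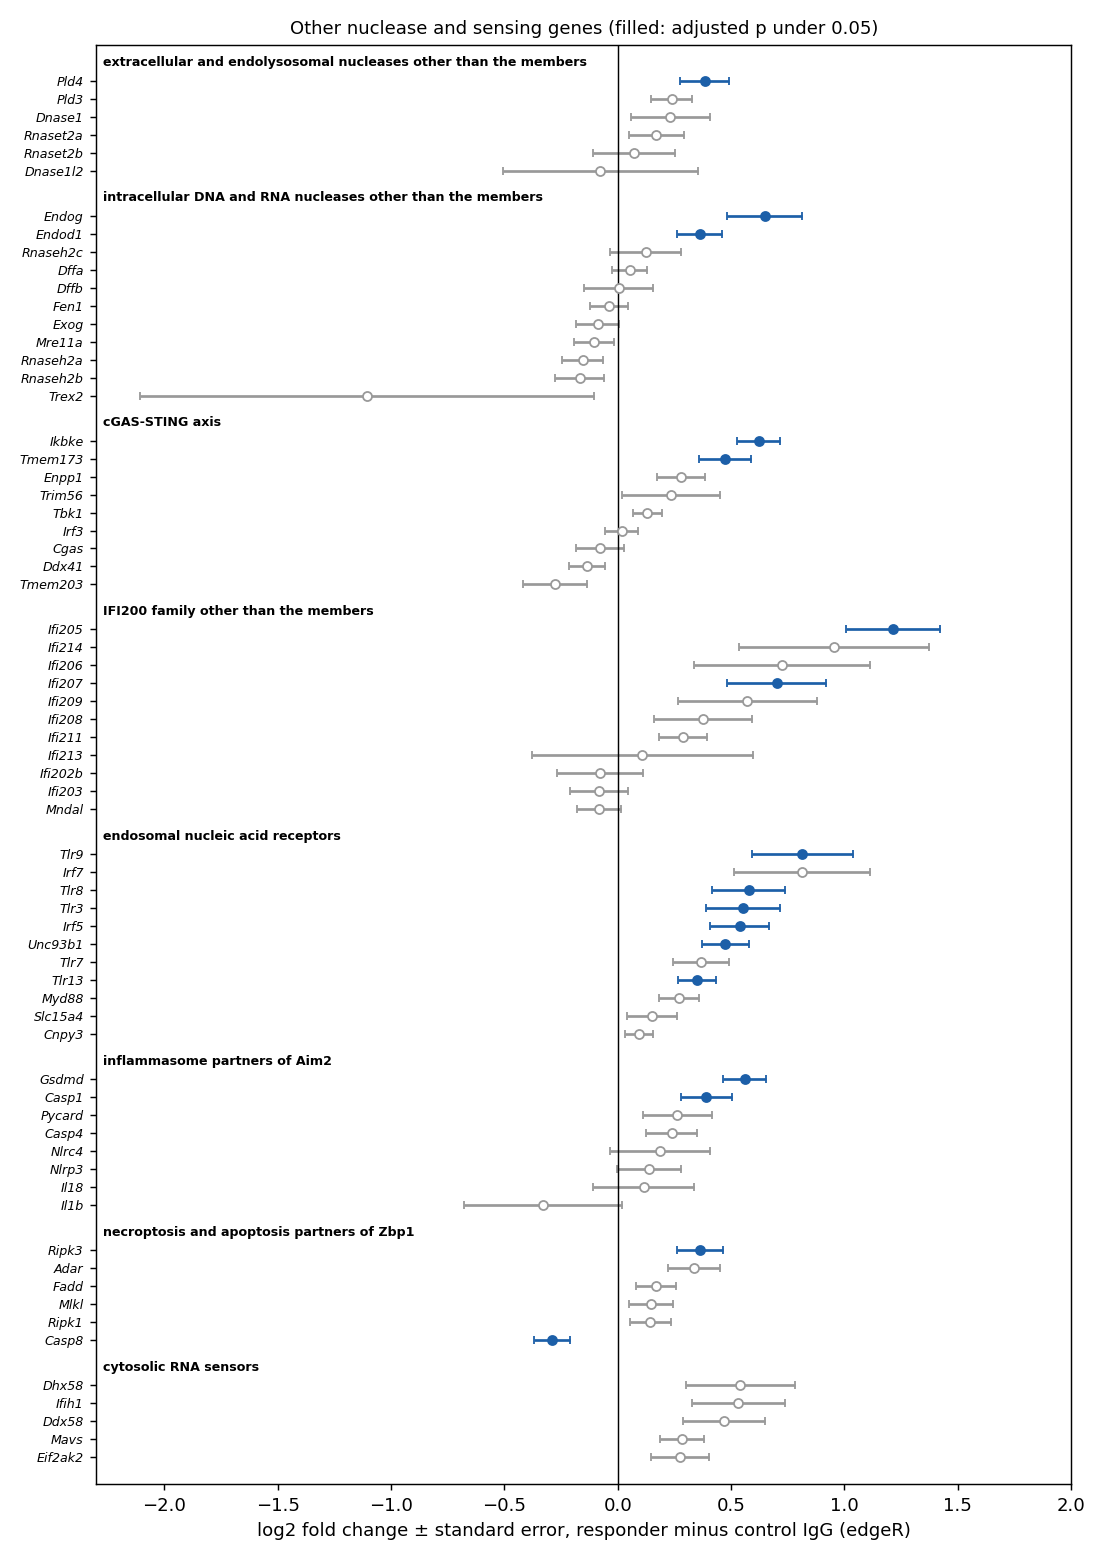
Log2 fold change between responders and control IgG tumors (horizontal, edgeR, with the standard error as bars) of 67 of the 68 tested genes of the 8 pathway lists (vertical, sorted within lists), filled where the adjusted p was under 0.05. The 11 endosomal genes all lie above 0 and 6 are filled, Ifi205 reaches 1.21, and Casp8, at -0.29, is the gene that fell.

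Genes of the inflammasome, which AIM2 starts, were higher or did not pass. Of 8 inflammasome genes, Gsdmd, which encodes the pore-forming protein of pyroptosis, rose by 0.52 against non-responders (SE 0.10, edgeR adjusted p = 0.0114) and by 0.56 against control IgG tumors (SE 0.10, edgeR adjusted p = 0.00245). Nlrp3, another inflammasome sensor, rose against non-responders by 0.61 (edgeR adjusted p = 0.0256), and the protease gene Casp1 against control IgG tumors by 0.39 (edgeR adjusted p = 0.0361). None of the 8 fell in either comparison.

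Of 6 genes through which Zbp1 acts or is held back, Ripk3, the kinase of necroptosis, rose by 0.38 against non-responders (edgeR adjusted p = 0.0412) and by 0.36 against control IgG tumors (edgeR adjusted p = 0.0300). Adar, an RNA-editing enzyme that also binds Z-form RNA, rose by 0.44 against non-responders (edgeR adjusted p = 0.0351). Casp8, a protease that restrains necroptosis, fell by 0.29 against control IgG tumors (edgeR adjusted p = 0.0285), from 63.9 ± 4.46 to 52.3 ± 4.99 CPM. Its difference from non-responders was -0.23 (edgeR adjusted p = 0.0931).

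Of 5 sensors of cytosolic RNA and their adaptor, Mavs rose by 0.35 (edgeR adjusted p = 0.0454) and Eif2ak2, the kinase PKR, by 0.45 (edgeR adjusted p = 0.0498) against non-responders, and none passed against control IgG tumors. All 5 had positive values in both comparisons, with a median of 0.56 and of 0.47.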

How the data were processed

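Bulk RNA-seq of 14 tumors was grouped by the treatment and response in the sample labels, and shared numbers with L or R marked the flanks of 1 mouse. Per the labels and the methods of the study, the authors used STAR for alignment to mm10 and RSEM for quantification. The Ensembl release and the strandedness are not given in the sources used here. The authors deposited expected counts, estimates of fragments per gene in which a fragment with several possible sources is split, without normalization. Their deposited TPM values divide these by effective length and share 1 total per tumor. The deposited FPKM values were not used, and the deposited gene lengths served only as described. Of 53801 Ensembl identifiers, 53620 were matched to a symbol in GENCODE vM21.

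Rounded expected counts entered edgeR 4.0.16 under R 4.3.3 (TMM, filterByExpr, quasi-likelihood test, Benjamini-Hochberg adjustment over 16287 genes). All 14 tumors entered 1 fit with 3 groups and no covariates, and the biological coefficient of variation was 0.227. The SE of a log2 fold change is its size divided by the square root of F. Nothing in the labels beyond tumor number and flank separates the samples, and p-values measure the spread between these tumors. Log2 CPM used a prior count of 2. Depth was 33237744 to 48481461 counts, and intervals from counting alone are small beside the spread between tumors.

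The members and the lists were chosen with earlier results of these data known. The genes named are the 8 members, the genes of the pathway lists with an adjusted p under 0.05 in any comparison (the 4 with the smallest p where over 4 passed), and the 10 genes most like Dnase1l3 within groups. Marker genes, Cgas and Dnase2b are named beside this rule, and 1 gene of the pathway lists is counted but not reported here.

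The tests were tried on simulated counts for responders and non-responders over 16287 genes, 200 of which were altered. The test of edgeR recovered 63% of those altered 2-fold and 86% of those altered 4-fold, with 4.49% of its calls false. DESeq2 1.42.0 recovered 73% and 89%, with 16.5% false, and limma 3.58.1 (voom with mouse as a random effect) 64% and 88%, with 2.56% false. The counts were drawn independently for each gene and tumor, without an effect of mouse. The simulation therefore cannot show how these tests behave where tumors share a mouse or genes vary together. Alternatives were these tools, DESeq2's size factors, other filters, log2(TPM + 1) and log2(TPM + 0.1) in limma, 1 library per mouse, the compared groups alone, removal of the trend on gene length (loess, span 0.5), an adjusted p of 0.1, and fits that left out 1 tumor each.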

Additional observations from a re-analysis of the deposited data

How the results depend on the processing

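Dnase1l3 and Samhd1 kept their direction, and their adjusted p under 0.05 against control IgG tumors, in all 10 alternatives of tool, scale, filter, samples or length and in all 14 fits that left out 1 tumor. For Dnase1l3 the difference from control IgG tumors was 1.54 to 2.34 over the 10 alternatives, and its difference from non-responders 1.63 to 2.43, lowest on the log2(TPM + 1) scale, where the pseudocount shrinks changes of low genes. Genes called between responders and non-responders numbered 1612, and 2634 with DESeq2, 2973 with limma-voom and a random effect of mouse, 689 with only these groups in the fit, 2940 at an adjusted p of 0.1, and 569 (without 24L) to 1978 (without 29L) when 1 tumor was left out. The random effect of mouse had an estimated correlation of -0.282, from 3 mice with 2 tumors. A negative value does not lower the weight of tumors that share a mouse, so that this fit is no guard against their dependence. With the left and right tumor of a mouse summed, 1759 genes were called. Between responders and control IgG tumors 2147 were called, 3230 at an adjusted p of 0.1, and 1190 (without 20R) to 3385 (without 33R) when 1 tumor was left out, and of the 8 members 5 were called, against 2 to 5. Between non-responders and control IgG tumors 0 were called, 18 with DESeq2, 3 without a filter, 3 at an adjusted p of 0.1, and 0 to 5 (without 35L) when 1 tumor was left out. The cause of these shifts was not tested, except that fewer tumors entered some fits. Mice lay within groups, so that no paired analysis was possible because the groups share no replicate number.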
